A study of Mus musculus with 12 samples.

Results

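The injured tubule markers are 10 genes known from damaged or incompletely repaired kidney epithelium, Havcr1, Vcam1, Lcn2, Clu, Spp1, Aoc1, Krt20, Sprr2f, Sox9 and Sox4, out of 23183 gene symbols measured. They were selected partly because they were strongly raised in the obstructed kidneys of these same libraries. Their rise from contralateral to obstructed kidney is therefore given below as a description, with no test, and only the comparisons between genotypes were tested. RNA of kidney cortex was sequenced from male C57BL/6N mice, operated at 6 to 7 weeks of age, on day 7 after unilateral ureteral obstruction (UUO), an operation that blocks urine flow from 1 kidney. The mice were Acot12+/+ (labelled WT) or were Acot12-/- through a germline allele of acyl-CoA thioesterase 12 mutated with an engineered nuclease, which all cells carry and not only tubules. The 4 groups were Acot12+/+ CL, Acot12+/+ UUO, Acot12-/- CL and Acot12-/- UUO, with 3 libraries each and 12 in all. CL is the unobstructed contralateral kidney of an operated mouse, so no group came from an unoperated animal.

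Tubule cells that survive obstruction lose transport functions and switch on surface receptors, secreted proteins, keratins and transcription factors that the healthy nephron expresses little or only in a few cells. HAVCR1 (KIM-1) and lipocalin-2 (NGAL) are used in the clinic and in animals as indicators of tubular injury, and VCAM1 marks proximal tubule cells that fail to repair. Several of these genes are not exclusive to tubules. Lipocalin-2 is also a granule protein of neutrophils, keratin 20 and the SPRR2 proteins are found in urothelium, VCAM1 in activated endothelium, and osteopontin, the product of Spp1, in macrophages. In bulk RNA a higher level per cell and a larger number of expressing cells cannot be told apart.

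Values are FPKM (fragments counted on a gene per kilobase of its length, relative to all fragments of the library), which are scaled by length and so can be set side by side between genes. Depth recovered from the steps between low values was about 12400000 to 16300000 fragments in CL and 18500000 to 23000000 in UUO libraries. A single fragment on 1 kb of effective length was thus worth 0.0614 to 0.0808 FPKM in CL and 0.0435 to 0.0540 FPKM in UUO libraries. The depths are fragment counts only if no further scaling between libraries was applied, which the sources used here do not state. Acot12 itself was 73.8, 52.7 and 78.1 FPKM in Acot12+/+ CL and 9.15, 9.01 and 6.80 FPKM in Acot12-/- CL kidneys, without overlap. In UUO kidneys it was 9.98, 16.7 and 21.2 FPKM in Acot12+/+ and 3.28, 1.80 and 3.86 FPKM in Acot12-/-, again without overlap. Replicates correlated at a Pearson r of 0.974 or more in 3 groups, whereas in Acot12-/- CL the lowest r was 0.942. Kap, a proximal tubule transcript, was listed at 0 in 3 of the 6 CL libraries and at 101309 to 189588 FPKM in the other 3, so it entered no test. Of the other 14 proximal tubule markers, 13 fell from CL to UUO in Acot12+/+ and 14 in Acot12-/- kidneys, where 23.9% and 27.2% of all genes tested fell.

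The promoters of the members are shown first for the 3 genes with the widest gap between kidneys. Keratin 20 and Sprr2f were close to 0 in CL kidneys, and Havcr1 had the highest ratio of group means in Acot12+/+ mice. RefSeq sequences from 250 bases before to 50 bases after the start of transcription were at hand for 7 of the 10 members, without Clu, Vcam1 and Sox9. Havcr1, Spp1 and Aoc1 have more than 1 such window, and the one nearest to the principal start of the annotation was used. Capitals mark matches to a motif of TEAD (GGAATG), AP-1 (TGANTCA) or the TATA box (TATAAA), searched on both strands together with NF-kB-like (GGNNTTTCC) and STAT (TTCNNNGAA) motifs. Each sequence reads 5′ to 3′ along the strand of its gene in GRCm38.p6. The windows are chr3:92364937-92365236 on the plus strand for Sprr2f, chr11:99438104-99438403 on the minus strand for Krt20 and chr11:46750918-46751217 on the plus strand for Havcr1.
Sprr2f: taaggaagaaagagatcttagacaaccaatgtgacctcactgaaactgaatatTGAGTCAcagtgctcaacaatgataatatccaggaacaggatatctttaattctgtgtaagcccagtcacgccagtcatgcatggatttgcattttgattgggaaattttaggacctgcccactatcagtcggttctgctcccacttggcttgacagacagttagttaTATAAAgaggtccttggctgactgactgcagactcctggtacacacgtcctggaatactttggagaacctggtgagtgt
Krt20: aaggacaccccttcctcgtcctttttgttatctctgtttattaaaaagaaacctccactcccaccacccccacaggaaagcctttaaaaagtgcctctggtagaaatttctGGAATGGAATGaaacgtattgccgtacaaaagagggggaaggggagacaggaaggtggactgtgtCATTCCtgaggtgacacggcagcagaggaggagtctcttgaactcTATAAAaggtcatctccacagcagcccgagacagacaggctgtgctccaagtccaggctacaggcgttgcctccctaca
Havcr1: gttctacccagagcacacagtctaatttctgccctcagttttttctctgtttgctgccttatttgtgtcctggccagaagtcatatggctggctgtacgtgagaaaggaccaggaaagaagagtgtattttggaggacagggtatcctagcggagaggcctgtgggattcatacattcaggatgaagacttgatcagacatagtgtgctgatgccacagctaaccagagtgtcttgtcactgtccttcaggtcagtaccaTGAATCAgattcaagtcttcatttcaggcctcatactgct

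In both Sprr2f and Krt20 the TATA box letters began 29 bases upstream of the start. The Krt20 window held 3 TEAD matches, which began 139, 134 and 74 bases upstream, and the first pair share 1 base. In Sprr2f an AP-1 match began 197 bases upstream, and in Havcr1 one began 10 bases downstream of the start. Among the windows not printed, Spp1 had TATA box letters 211 bases upstream and Sox4 a TEAD match 168 bases upstream, while Lcn2 and Aoc1 held none of the 5 motifs. The other Aoc1 window, which starts 9732 bases from the principal start, held an AP-1 match 131 and a TEAD match 63 bases upstream of its own start. Over the nearest windows, 2 of the 7 members held the AP-1, 2 the TEAD and 3 the TATA box letters, and 0 held the NF-kB-like or STAT letters. Over all windows of these genes the AP-1 and TEAD counts were 3 and 3. Of 32851 promoter windows of the same length, 7.81% held the AP-1, 14.7% the TEAD, 13.6% the TATA box, 5.82% the NF-kB-like and 8.30% the STAT letters. A match is a match of letters and not a measured binding site.

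For all 10 markers, every UUO library was higher than every CL library in both genotypes. Of the 13243 genes tested, 23.4% showed this pattern, and the members were selected on it. The rise ranged from 5.45-fold for Sox4 to 203-fold for Havcr1 in the group means of Acot12+/+ mice. In Acot12-/- mice it ranged from 4.45-fold for Spp1 to 187-fold for Krt20, leaving out Sprr2f, which was listed at 0 in that CL group.

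**Figure D1:**
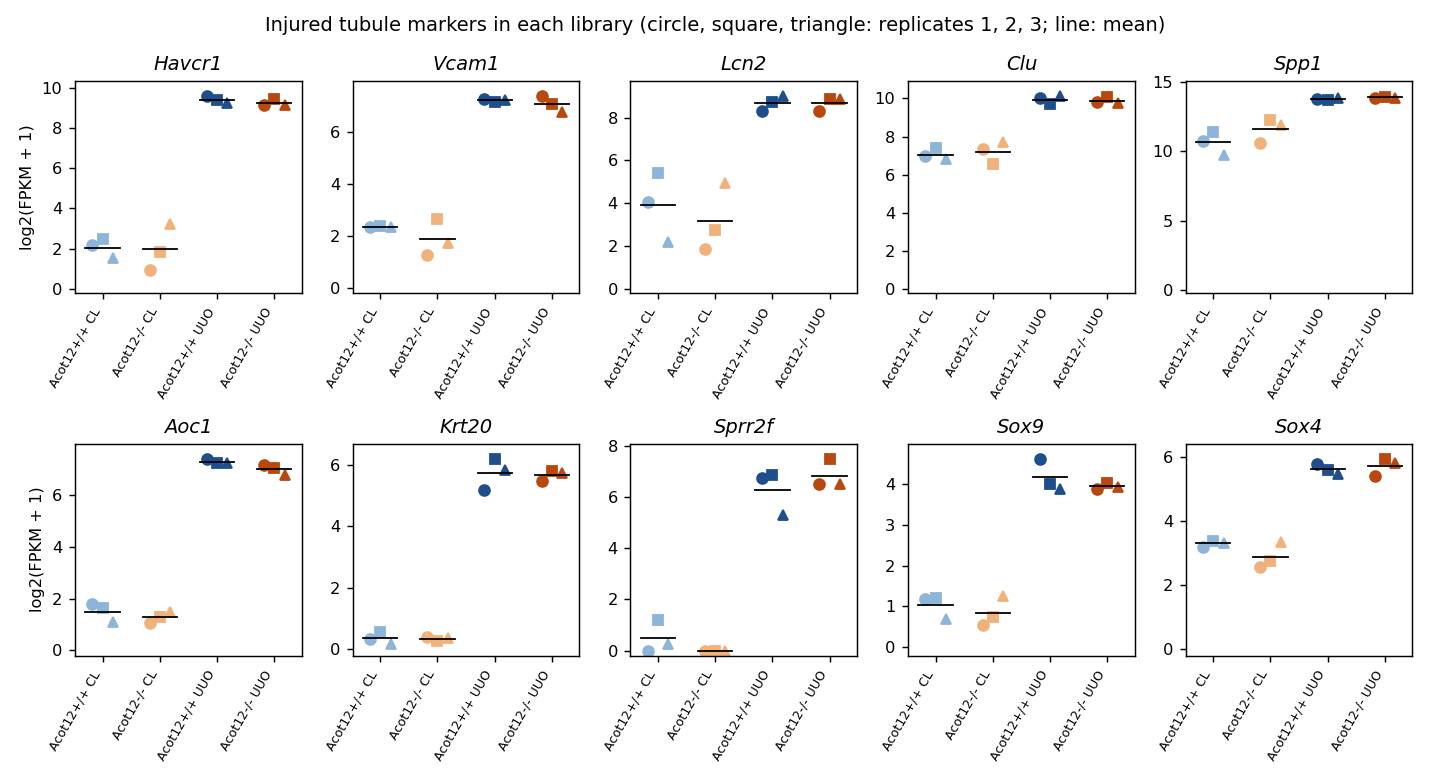
Level of each marker as log2(FPKM + 1) in the 12 libraries, by group; circles, squares and triangles are replicates 1, 2 and 3, the line is the mean of 3, and each panel has its own vertical axis. In every panel the 6 UUO libraries lie above the 6 CL libraries, and the points of Lcn2, Havcr1 and Spp1 spread more in CL than in UUO kidneys.

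Havcr1 (chr11:46735080-46779578, plus strand, GRCm38) encodes a receptor by which injured proximal tubule cells take up dying neighbours. In CL kidneys it was 3.56, 4.48 and 1.87 FPKM in Acot12+/+ and 0.897, 2.55 and 8.43 FPKM in Acot12-/- mice. In UUO kidneys it was 755, 657 and 597 FPKM in Acot12+/+ and 564, 686 and 568 FPKM in Acot12-/- mice. The rise was 203-fold and 153-fold between group means, from ranks 6781 to 11868 to ranks 96 to 188 among all gene symbols of a library. The 6 UUO libraries differed by at most 1.34-fold, the 6 CL libraries by 9.40-fold, with Acot12-/- CL replicate 3 the highest and replicate 1 the lowest.

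Vcam1 (chr3:116109949-116129688, minus strand) encodes an adhesion molecule that binds integrins of leukocytes. It was 4.10, 4.23 and 3.99 FPKM in Acot12+/+ CL and 1.37, 5.28 and 2.29 FPKM in Acot12-/- CL kidneys. With obstruction it was 151, 141 and 147 FPKM in Acot12+/+ and 164, 133 and 107 FPKM in Acot12-/- kidneys. The group means rose 35.7-fold and 45.1-fold. The coefficient of variation was 2.91% in Acot12+/+ CL but 68.7% in Acot12-/- CL, where replicates 1 and 3 lay below and replicate 2 above all Acot12+/+ CL libraries. The exons of Vcam1 overlap 1 annotated gene on the opposite strand, and the strand setting of the counting is not given in the sources used here.

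Lcn2 (chr2:32384633-32388252, minus strand) encodes the iron-siderophore carrier lipocalin-2. Its CL values were 15.8, 41.8 and 3.57 FPKM in Acot12+/+ and 2.58, 5.73 and 29.6 FPKM in Acot12-/- mice, the widest spread of the markers with a value above 0 in all CL libraries (16.2-fold). Its UUO values were 316, 417 and 506 FPKM in Acot12+/+ and 312, 462 and 467 FPKM in Acot12-/- mice, within 1.62-fold. The rise of the means was 20.2-fold and 32.7-fold. Clu (chr14:65968483-65981547, plus strand) encodes clusterin, a secreted chaperone. It was already 124, 165 and 113 FPKM in Acot12+/+ CL and 161, 91.9 and 210 FPKM in Acot12-/- CL kidneys. It reached 1021, 825 and 1099 FPKM in Acot12+/+ UUO and 897, 1072 and 877 FPKM in Acot12-/- UUO kidneys, a rise of 7.33-fold and 6.15-fold.

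Spp1 (chr5:104435118-104441050, plus strand) encodes osteopontin, a secreted phosphoprotein that attracts macrophages. It was 1736, 2761 and 878 FPKM in Acot12+/+ CL and 1541, 4898 and 3849 FPKM in Acot12-/- CL kidneys, so that it ranked 11 to 156 among all genes there. In UUO kidneys it was 14246, 13274 and 14734 FPKM in Acot12+/+ and 14826, 15934 and 15064 FPKM in Acot12-/- mice. It then ranked 1 to 3 in every UUO library and took 2.20% to 3.01% of the summed FPKM, against 0.110% to 0.587% in CL libraries. The rise was 7.86-fold and 4.45-fold, since the mean CL level was 1792 FPKM in Acot12+/+ and 3429 FPKM in Acot12-/- kidneys. Its exons overlap 1 annotated gene on the same strand.

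Aoc1 (chr6:48872896-48909188, plus strand) encodes diamine oxidase, which breaks down histamine and putrescine. It was 2.45, 2.08 and 1.14 FPKM in Acot12+/+ CL and 1.07, 1.48 and 1.81 FPKM in Acot12-/- CL kidneys. Obstructed kidneys had 168, 151 and 150 FPKM in Acot12+/+ and 142, 134 and 109 FPKM in Acot12-/- mice, a rise of 82.6-fold and 88.3-fold. All 3 Acot12-/- UUO libraries thus lay below all 3 Acot12+/+ UUO libraries. That difference of 0.29 on the log2 scale was not called (adjusted p = 1.00, limma), and 12.0% of the genes tested were without overlap between the genotypes in UUO kidneys.

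The epithelial structure genes Krt20 and Sprr2f were the closest to 0 in CL kidneys. Krt20 (chr11:99428403-99438150, minus strand) encodes keratin 20, an intermediate filament protein. It was 0.264, 0.476 and 0.126 FPKM in Acot12+/+ CL and 0.314, 0.202 and 0.290 FPKM in Acot12-/- CL kidneys, which corresponds to only 3.0 to 9.9 fragments per library. It was 35.2, 72.1 and 55.7 FPKM in Acot12+/+ UUO and 43.8, 54.9 and 52.5 FPKM in Acot12-/- UUO kidneys. The means rose 188-fold and 187-fold, a ratio that rests on those few CL fragments.

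Sprr2f (chr3:92365187-92366442, plus strand, 2 exons) encodes a small proline-rich protein of cornified and stressed epithelia. In Acot12+/+ CL it was listed at 0, 1.31 and 0.179 FPKM, or 0, 6.0 and 1.0 fragments, and it was listed at 0 in all 3 Acot12-/- CL libraries. In UUO kidneys it was 104, 114 and 37.9 FPKM in Acot12+/+ and 89.9, 177 and 88.4 FPKM in Acot12-/- mice, the widest UUO spread of the 10 (4.67-fold). No fold is given against a group listed at 0. Sprr2f lies in a cluster of near-identical copies, so the division of reads among them is uncertain.

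The transcription factors Sox9 and Sox4 act in nephron development, and Sox9 is switched on again in tubule cells after damage. Sox9 (chr11:112782224-112787760, plus strand) was 1.28, 1.32 and 0.606 FPKM in Acot12+/+ CL and 0.460, 0.661 and 1.40 FPKM in Acot12-/- CL kidneys. Its UUO values were 23.4, 15.0 and 13.6 FPKM in Acot12+/+ and 13.7, 15.2 and 14.1 FPKM in Acot12-/- mice, a rise of 16.2-fold and 17.0-fold. Sox9 was the lowest of the markers in UUO kidneys. Sox4 (chr13:28948919-28953713, minus strand) is a gene of a single exon. It was 8.23, 9.43 and 8.98 FPKM in Acot12+/+ CL and 4.91, 5.82 and 9.19 FPKM in Acot12-/- CL kidneys. It was 54.3, 47.7 and 43.1 FPKM in Acot12+/+ UUO and 41.7, 60.5 and 55.0 FPKM in Acot12-/- UUO kidneys, a rise of 5.45-fold and 7.89-fold. Its exon overlaps 1 annotated gene on the opposite strand.

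The order of the levels differed between CL and UUO kidneys. In both genotypes, Spp1 and Clu led in CL kidneys, followed by Lcn2 and Sox4. In UUO kidneys of both genotypes Spp1, Clu, Havcr1 and Lcn2 followed each other without overlap between neighbours. Havcr1 moved from position 6 of 10 in Acot12+/+ CL to position 3 in Acot12+/+ UUO. Aoc1, Vcam1 and Sprr2f came next, with Aoc1 and Vcam1 overlapping in both genotypes. Krt20 and Sox4 overlapped as well, and Sox9 lay below all others in every UUO library.

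CL and UUO kidneys that carry the same replicate number within a genotype mostly went together in the residuals of the fit. The change was therefore also taken pair by pair, although the labels do not state this pairing. Every marker was higher in the UUO kidney in all 6 pairs. Between pairs the ratio ranged from 67.4 to 628 for Havcr1, from 9.97 to 142 for Lcn2, from 60.1 to 133 for Aoc1 and from 133 to 442 for Krt20. It ranged from 25.1 to 119 for Vcam1, 10.1 to 29.7 for Sox9, 4.18 to 11.7 for Clu, 4.80 to 10.4 for Sox4 and 3.25 to 16.8 for Spp1. The wide ranges of Havcr1, Lcn2 and Spp1 went with their CL levels, as their UUO levels differed by at most 1.62-fold.

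**Figure D2:**
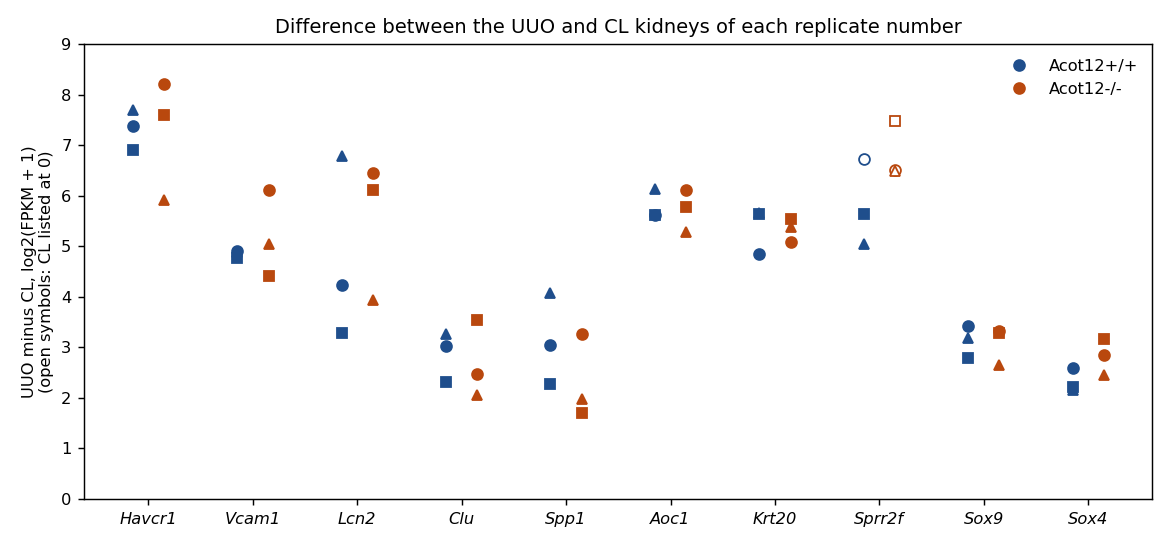
Difference between the UUO and the CL kidney of the same genotype and number for each marker, in log2(FPKM + 1); blue is Acot12+/+, orange is Acot12-/-, shapes are replicates 1, 2 and 3 as circle, square and triangle, and open symbols have a CL value listed at 0. All 60 differences are above 0, and the pairs of the genotypes overlap for 10 of the 10 markers.

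Whether the loss of Acot12 changed these markers was tested in obstructed kidneys with limma on log2(FPKM + 1). None of the 10 was called, and 0 had an unadjusted p under 0.05, where 0.0151% of all genes tested were called (2 genes) and 312 genes had an unadjusted p under 0.05. The Acot12-/- minus Acot12+/+ differences ran from -0.29 for Aoc1 (95% interval -0.71 to 0.13) to 0.54 for Sprr2f (-0.37 to 1.45), and the adjusted p was 1.00 for each. For Havcr1 the difference was -0.14 (-1.11 to 0.82), for Vcam1 -0.14 (-0.76 to 0.47) and for Lcn2 0.00 (-1.70 to 1.71). A difference of 1 log2 unit thus lay inside the interval of Lcn2 in both directions, and inside those of Havcr1, Sprr2f and Spp1 in a single direction. Sox9 gave -0.22 (-0.73 to 0.28), Sox4 0.10 (-0.35 to 0.55), Krt20 -0.05 (-0.53 to 0.42) and Clu -0.04 (-0.64 to 0.55). For Spp1 all 3 Acot12-/- UUO libraries lay above all 3 Acot12+/+ UUO libraries, with a difference of 0.12 (-0.83 to 1.07) that became -0.06 when all libraries were scaled to the same total FPKM. The other 8 markers apart from Aoc1 and Spp1 overlapped between the genotypes.

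In CL kidneys none of the 10 markers was called and 0 had an unadjusted p under 0.05, although 4.48% of all genes tested were called there (593 genes) and 2289 genes had an unadjusted p under 0.05. Krt20 and Sprr2f passed the filter on low values only through the UUO libraries. At their CL levels the pseudocount of 1 compresses any difference, so the CL test bears on the other 8 markers. Among these 8, Sox9 (0.460 to 1.40 FPKM in CL) and Aoc1 (1.07 to 2.45 FPKM) lay near the pseudocount, so their differences are compressed in part. The lowest CL values of Havcr1 (0.897 FPKM) and Vcam1 (1.37 FPKM) were near it too. The values of the genotypes overlapped for all 10 markers, while 18.3% of all genes tested did not overlap. Of the 10 differences, 8 were negative, with a median of -0.20 against 0.01 over all genes tested. Spp1 had the highest difference, 0.93 (95% interval -0.02 to 1.88, adjusted p = 0.303). Lcn2 had the lowest, -0.72 (-2.42 to 0.98, adjusted p = 0.726), and without Acot12+/+ CL replicate 2 it was 0.04. Sox4 gave -0.41 (-0.86 to 0.04, adjusted p = 0.347), Vcam1 -0.48 (-1.09 to 0.13, adjusted p = 0.435) and Sprr2f -0.48 (-1.40 to 0.43), a value that depends on the pseudocount since most of its CL values are 0. Without Acot12-/- CL replicate 2, the library in which Vcam1 was high, Vcam1 was called lower in Acot12-/- CL kidneys (-0.87, adjusted p = 0.00878), and over all alternatives its adjusted p ran from 0.00878 to 0.831. Aoc1 gave -0.22 (-0.64 to 0.20), Sox9 -0.18 (-0.69 to 0.32), Havcr1 -0.06 (-1.02 to 0.90), Krt20 -0.01 (-0.49 to 0.46) and Clu 0.14 (-0.45 to 0.73).

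The difference between the genotypes in the size of the UUO response was tested as an interaction. It called 0 of the 10 markers, with 0 at an unadjusted p under 0.05, where 0.106% of all genes tested were called (14 genes) and 1389 had an unadjusted p under 0.05. As in the CL test, the pseudocount compresses the CL part of Sprr2f and Krt20, so the interaction test bears on the other 8 markers. The CL part of Sox9 and Aoc1 is compressed to a lesser degree. The interaction was highest for Sprr2f, 1.02 (95% interval -0.27 to 2.31, adjusted p = 0.632), a value that depends on the pseudocount. It was lowest for Spp1, -0.81 (-2.15 to 0.53, adjusted p = 0.767). Sox4 gave 0.51 (-0.12 to 1.14, adjusted p = 0.619), Vcam1 0.34 (-0.53 to 1.20) and Lcn2 0.72 (-1.69 to 3.13). Havcr1, Aoc1, Krt20, Sox9 and Clu lay between -0.19 and -0.04.

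**Figure D3:**
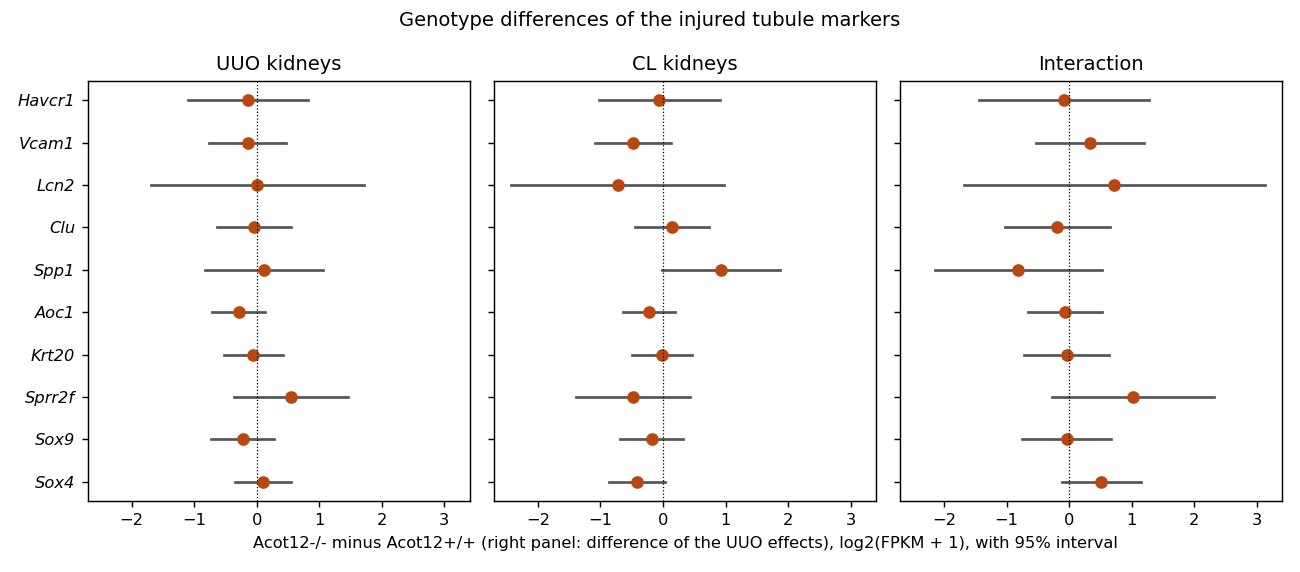
Acot12-/- minus Acot12+/+ difference of each marker in UUO kidneys (left), in CL kidneys (middle) and the interaction (right), in log2(FPKM + 1) from the limma fit of 12 libraries; bars are 95% intervals. All 30 intervals include 0, that of Spp1 in CL kidneys from -0.02 to 1.88.

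The spread among CL libraries was not the same for each marker. Acot12-/- CL replicate 1 was the lowest of the 6 CL libraries in 7 of the 10 markers (counting Sprr2f, tied at 0 with 3 others), Acot12+/+ CL replicate 2 the highest in 4 and Acot12-/- CL replicate 3 the highest in 3. The mean rank over the markers was 1.95 in the first of these, 5.30 in the second and 4.55 in the last, on a scale from 1 for the lowest to 6 for the highest. Among UUO libraries the mean rank ran from 2.60 to 4.50. Markers of urothelium and neutrophils moved with this in 2 of the 6 libraries. The summed FPKM of 10 urothelium markers was 71.4 in Acot12+/+ CL replicate 2 and 1.65 in Acot12-/- CL replicate 1, against 7.14 to 19.1 in the other CL libraries. The summed FPKM of 12 neutrophil markers was 69.9 and 2.61 in the same 2 libraries, against 15.7 to 25.3 in the others. In the other 4 libraries the sums followed the rank of the markers only in part. Acot12-/- CL replicate 3, with the mean rank of 4.55, had a urothelium sum of 9.29 FPKM, while replicate 2, with a mean rank of 3.15, had 19.1 FPKM. The neutrophil sum was 25.3 FPKM in that replicate 3, the highest of these 4, and 15.7 FPKM in that replicate 2. In Acot12+/+ CL it was 17.2 FPKM in replicate 1 (mean rank 3.65) and 18.3 FPKM in replicate 3 (mean rank 2.40). The macrophage and endothelium sums did not follow this in Acot12+/+ CL replicate 2, where they were 166.8 and 139.6 FPKM, the lowest of its group. In Acot12-/- CL replicate 1 they were 56.55 and 48.78 FPKM, the lowest of the 6 CL libraries. The part of these cells in the CL levels of the markers was not tested.

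**Figure D4:**
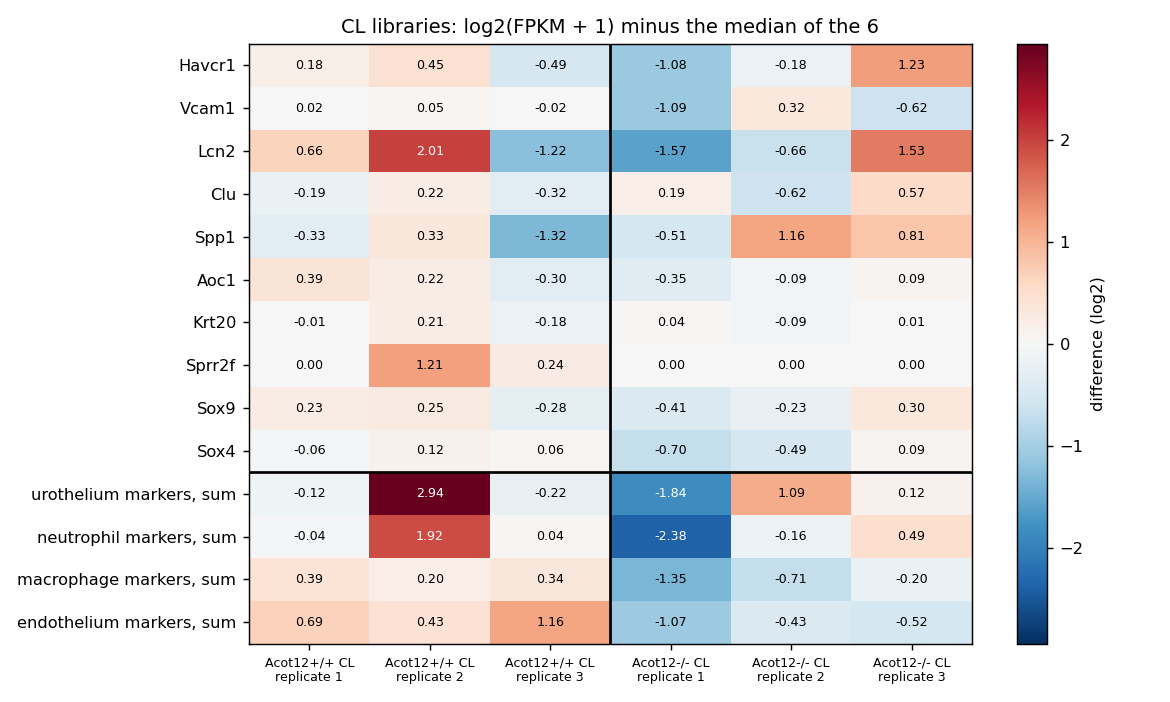
Level in each CL library as log2(FPKM + 1) minus the median of the 6 CL libraries, for the 10 markers (above the line) and for the summed FPKM of 4 lists of cell markers (under it); red is above and blue under the median. Lcn2 is 2.01 above it in Acot12+/+ replicate 2 and 1.57 under it in Acot12-/- replicate 1, where the urothelium sum is 2.94 above and 1.84 under its median.

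The same lists were followed in UUO kidneys. The urothelium sum was 134, 165 and 17.6 FPKM in Acot12+/+ UUO and 130, 177 and 114 FPKM in Acot12-/- UUO libraries. Acot12+/+ UUO replicate 3, with the lowest urothelium sum, also had the lowest Sprr2f (37.9 FPKM), whereas its Krt20 (55.7 FPKM) lay between the other replicates of its group. All 9 urothelium markers tested were called higher with UUO in Acot12-/- and 2 of 9 in Acot12+/+ kidneys. Over all genes tested, 26.6% and 23.6% were called higher in these genotypes. The 2 included the basal keratin Krt5 (2.99 on the log2 scale), and 5 of the 9, Krt5 included, passed the filter only through UUO libraries. For these 9 the interaction and the genotype test in UUO kidneys each called 0, with 0 at an unadjusted p under 0.05 (limma). The neutrophil sum was 38.1, 77.6 and 25.8 FPKM in Acot12+/+ UUO and 48.8, 174 and 61.3 FPKM in Acot12-/- UUO libraries. Of the 4 neutrophil markers tested, 1 rose with UUO in Acot12+/+, near the share of all genes, and 4 in Acot12-/- kidneys. The interaction called 0 of them (3 at an unadjusted p under 0.05, limma). The UUO library with the lowest neutrophil sum, Acot12+/+ replicate 3, had the highest Lcn2 (506 FPKM). The part of neutrophils in the Lcn2 level was not tested. The sum was mostly S100a8 and S100a9, the calprotectin subunits, which were 13.3 to 61.8 and 9.02 to 96.6 FPKM in UUO libraries and 0.805 to 44.5 and 1.38 to 20.7 FPKM in CL libraries. Elane and Mpo, granule genes of immature neutrophils, were at 0 and at most 0.083 FPKM, and Ltf was 0.125 to 0.263 FPKM in Acot12+/+ UUO and 0.364 to 3.87 FPKM in Acot12-/- UUO libraries. Only S100a8 and S100a9 of the tested neutrophil markers passed the filter on low values in CL libraries alone. The neutrophil receptor gene Csf3r was 0.080 to 1.23 FPKM in CL and 1.50 to 3.05 FPKM in UUO libraries.

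Macrophage markers, 13 in all, summed to 167 to 191 FPKM in Acot12+/+ CL, 692 to 842 FPKM in Acot12+/+ UUO, 56.5 to 127 FPKM in Acot12-/- CL and 755 to 1012 FPKM in Acot12-/- UUO libraries. Of the 12 tested, 11 rose with UUO in Acot12+/+ and 12 in Acot12-/- kidneys, led by Lyz2, the lysozyme of myeloid cells (3.13 in Acot12+/+). Of the 12, 1 (Itgam) passed the filter on low values only through UUO libraries, so its direction was favoured by that filter. Over all genes tested, 23.6% rose and 23.9% fell in Acot12+/+ and 26.6% rose and 27.2% fell in Acot12-/- kidneys. In CL kidneys 4 of the 12 were called lower in Acot12-/- mice, where 4.48% of all genes were called in either direction. The 8 endothelium markers summed to 140 to 233 FPKM in Acot12+/+ CL and 48.8 to 76.7 FPKM in Acot12-/- CL libraries, and 6 of them were called lower in Acot12-/- CL kidneys. With UUO, 1 of the 8 rose and 4 fell in Acot12+/+ kidneys, whereas 5 rose and 0 fell in Acot12-/- kidneys, and the interaction called 0 of the 8 (7 at an unadjusted p under 0.05, limma). Fibroblast markers rose with UUO in 6 of 9 in Acot12+/+ and 9 of 9 in Acot12-/- kidneys, and lymphocyte markers in 5 of 6 in each, though 3 of the 6 passed the filter only through UUO libraries. In CL kidneys 2 of the 9 fibroblast and 3 of the 6 lymphocyte markers were called lower in Acot12-/- mice, against the 4.48% of all genes called there. The distal tubule list fell in 12 of 12 in Acot12+/+ and 10 of 12 in Acot12-/-, and of 6 podocyte markers 2 rose and 1 fell in each genotype, near the shares over all genes. Vcam1 and Spp1 are made by endothelium and macrophages as well, and the part of these cells in their levels was not tested.

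Of 40 other genes known from injured epithelium, 39 could be tested, 2 of which (Cdh6 and Mmp7) passed the filter only through UUO libraries. Of the 39, 32 rose and 0 fell with UUO in Acot12+/+ kidneys, where 23.6% of all genes tested rose and 23.9% fell. In Acot12-/- kidneys 33 rose and 0 fell, against 26.6% and 27.2% of all genes tested. The median difference was 1.85 in Acot12+/+ and 2.12 in Acot12-/-, against 0.01 and -0.01 over all genes. The list was drawn up with earlier results of these data known, so its direction is not independent evidence. C3, the central complement component, had the largest rise, from 2.57, 4.62 and 1.59 FPKM in Acot12+/+ CL to 270, 295 and 208 FPKM in Acot12+/+ UUO kidneys. In Acot12-/- mice it was 2.24, 6.88 and 7.44 FPKM in CL and 304, 262 and 230 FPKM in UUO kidneys. The neutrophil-attracting chemokine Cxcl1 rose by 4.39 and 3.97 on the log2 scale, and the simple epithelial keratin Krt19 by 4.01 and 4.88. Between genotypes, 0 of the 39 were called in UUO kidneys by limma (1 at an unadjusted p under 0.05). In CL kidneys 2 were called lower in Acot12-/- mice, a share near the 4.48% of all genes called there. At an unadjusted p under 0.05 (limma) there were 11 of the 39, against 17.3% of all genes tested. Of the 39, 26 were lower in Acot12-/- CL kidneys, with a median difference of -0.41 against 0.01 over all genes. The interaction called 0 (4 at an unadjusted p under 0.05). The 2 genes called lower in CL kidneys, Anxa2 (-0.83, adjusted p = 0.0324) and Timp2 (-0.71, adjusted p = 0.0187), were named after their values were seen.

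**Figure D5:**
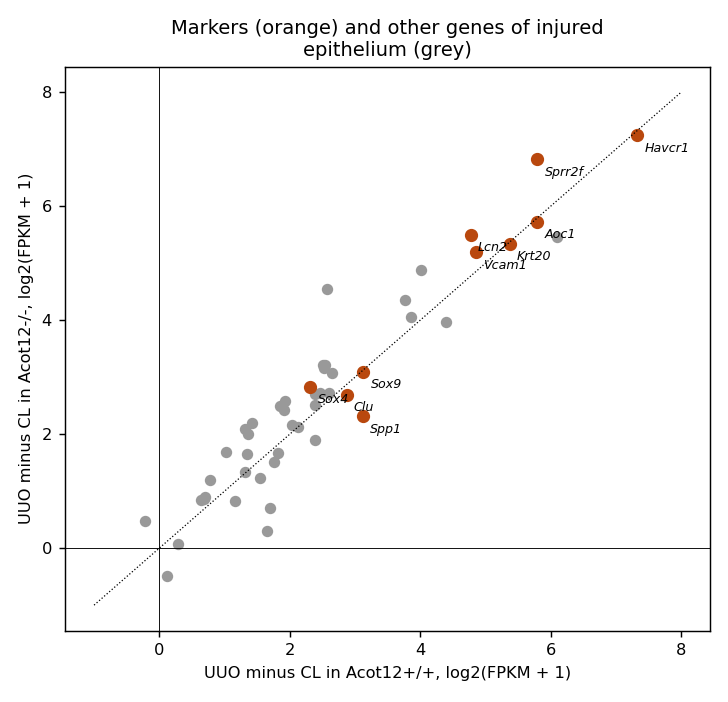
UUO minus CL difference in Acot12+/+ (horizontal axis) and Acot12-/- kidneys (vertical axis) in log2(FPKM + 1), for the 10 markers (orange, named) and 39 other genes of injured epithelium (grey); the dotted line marks equal differences. The markers lie at 2.3 or higher on both axes, by their selection, and 38 of the 39 grey points are above 0 in each genotype.

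Genes that act with the members were followed by role. The SPRR family holds 14 relatives of Sprr2f, of which 3 could be tested and were called higher in both genotypes. Of these 3, Sprr2a3 and Sprr2g passed the filter on low values only through the UUO libraries, so their direction was fixed by that filter, and the other 11 were too low to test. Sprr1a was 4.54, 37.7 and 4.08 FPKM in Acot12+/+ CL and 181, 210 and 165 FPKM in Acot12+/+ UUO kidneys, higher than Sprr2f in each of these libraries. The UUO minus CL difference of Sprr2g was 3.76 in both genotypes, and that of Sprr2a3 was 2.93 in Acot12+/+ and 4.42 in Acot12-/- kidneys. In Acot12+/+ UUO replicate 3, which had the lowest Sprr2f, Sprr2a3 was 1.98 FPKM against 25.0 and 38.6 FPKM in the others, while Sprr1a (165 FPKM) and Sprr2g (20.1 FPKM) were near theirs.

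Receptors and partners of the proteins the members encode went both ways. Of 12 tested, 8 rose and 2 fell in Acot12+/+ and 7 rose and 2 fell in Acot12-/- kidneys. Over all genes tested, 23.6% rose and 23.9% fell in Acot12+/+ and 26.6% rose and 27.2% fell in Acot12-/- kidneys. But 5 of the 12 (Cd44, Trem2, Itgb7, Itga4 and Itgb3) passed the filter only through UUO libraries, so their direction was favoured by that filter. Cd44, a hyaluronan receptor that also binds osteopontin, was 1.41, 1.47 and 0.896 FPKM in Acot12+/+ CL and 36.0, 37.4 and 47.4 FPKM in Acot12+/+ UUO kidneys. Trem2, a lipid receptor of myeloid cells that binds clusterin, rose by 2.51, and Itgb7, a subunit of an integrin that binds VCAM1, by 0.89. Lrp2, which encodes megalin and takes up lipocalin-2 and clusterin from the filtrate, fell by 2.40 on the log2 scale, from 118, 97.4 and 123 FPKM to 18.5, 18.8 and 24.3 FPKM. The lipoprotein receptor gene Vldlr fell by 1.14, and by 0.49 with equal total FPKM, where it was not called (adjusted p = 0.0960).

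Enzymes of polyamine and histamine turnover, in which Aoc1 acts, moved in both directions, with 3 of 12 called higher and 5 lower in each genotype. The count called higher is near the share of all genes, 23.6% in Acot12+/+ and 26.6% in Acot12-/- kidneys, against 23.9% and 27.2% called lower. Smox, the spermine oxidase, rose by 2.10 in Acot12+/+ and 2.58 in Acot12-/- kidneys. Paox, the acetylpolyamine oxidase, rose by 0.90 and Hdc, which makes histamine, by 0.54 in Acot12+/+ kidneys. Hdc, which counts among the 3 called higher, passed the filter on low values only through UUO libraries, so its direction was favoured by that filter. Hdc was not called without Acot12+/+ CL replicate 1 (adjusted p = 0.0576) or Acot12+/+ UUO replicate 2 (adjusted p = 0.0533). Odc1, the rate-limiting enzyme of polyamine synthesis, fell from 382, 321 and 757 FPKM in Acot12+/+ CL to 101, 114 and 149 FPKM in Acot12+/+ UUO kidneys. Hnmt, which methylates histamine, fell by 1.66, and the spermine synthase gene Sms fell by 1.14, with equal total FPKM by 0.46 (adjusted p = 0.0583, not called).

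Of the other Sox factors, 3 of the 7 tested rose and 1 fell in Acot12+/+ kidneys, and 4 rose and 1 fell in Acot12-/- kidneys. Over all genes tested, 23.6% rose and 23.9% fell in Acot12+/+ kidneys, and 26.6% rose and 27.2% fell in Acot12-/- kidneys. With only 7 genes these counts cannot tell whether the family differs from all genes. Sox11 and Sox7 passed the filter only through UUO libraries, so their direction was favoured by that filter. Sox11, of the same group as Sox4, was 0.173, 0.176 and 0.097 FPKM in Acot12+/+ CL and 2.49, 2.27 and 0.973 FPKM in Acot12+/+ UUO kidneys. Sox12 rose by 0.61 and Sox18, an endothelial factor, by 0.60 in Acot12+/+ kidneys. The call of Sox12 was lost without any single one of 5 Acot12+/+ libraries (adjusted p of 0.0620 to 0.114). Sox6 fell by 0.64 (0.06 with equal total FPKM, not called). Between genotypes, 1 of the 7, Sox18, was called lower in Acot12-/- CL kidneys (-0.80, adjusted p = 0.0169, limma), where 4.48% of all genes tested were called. The endothelium markers were low there as well, and a link to Sox18 was not tested.

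For each marker, the gene outside the 10 with the most similar course over the 12 libraries was sought by Pearson r of log2(FPKM + 1). It was Stx11 for Aoc1 (0.998), Havcr1 (0.995) and Sox9 (0.993). It was Lgi2 for Krt20 (0.996), Thbs2 for Vcam1 (0.995), Ehd2 for Sox4 (0.995), Chrnb1 for Sprr2f (0.994), Mfsd10 for Clu (0.994), Actb for Lcn2 (0.987) and Cd9 for Spp1 (0.983). These 12 points fall into CL and UUO clusters, so a high r mainly describes the step between the kidneys. Stx11 was 0.244 to 0.633 FPKM in CL and 6.23 to 7.47 FPKM in UUO libraries.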

How the data were processed

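Kidney cortex RNA from 12 mouse kidneys (4 groups of 3) was measured by RNA-seq. A service provider processed the reads, and the deposited values are the authors' FPKM for 23183 gene symbols, a unit derived from the values. The submitters' processing notes name mm10 and edgeR without a role, and the aligner is not given in the sources used here. FPKM are not counts, so no count model was run. The steps between low FPKM gave each library's depth, if no further scaling between libraries was applied.

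Genes with at least 1 FPKM in at least 3 libraries were tested, except 28 listed at 0 in a library beside at least 10 FPKM in another of its group, which left 13243. R 4.3.3 with limma 3.58.1 was run on log2(FPKM + 1), all groups in a single fit with a variance trend. Calls required p under 0.05 after Benjamini-Hochberg adjustment over all genes tested. Fold changes on this scale understate the change of low genes, and ratios in the text are of FPKM means. "Rose" and "fell" outside the 10 markers mean called. The test was checked on simulated data. Summaries and figures used Python 3.11.15. Labels do not say whether replicates are separate animals, so p-values measure only the spread between these libraries.

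Same-numbered CL and UUO libraries had residuals correlated at 0.13, 0.36 and 0.33 in Acot12+/+ and 0.32, 0.19 and 0.32 in Acot12-/-. For differently numbered libraries of a genotype the correlations ran from -0.36 to 0.14. The numbers were therefore taken to pair the kidneys, which the labels do not state. A fit with this pairing as a replicate block changed no call of a member between genotypes. For UUO against CL it changed none for C3, Cxcl1, Krt19 or the most changed genes of the Sprr, receptor, polyamine and Sox lists. The members and the gene lists were chosen with earlier results of these data known. Named are the 10 members, Acot12, the called genes of each list with the 3 largest rises and falls in Acot12+/+, any gene of the lists on Sprr, receptors, polyamines and Sox, and the most similar gene of each member. Others are marked where named. Cell markers named to describe a list (Kap, S100a8, S100a9, Elane, Mpo, Ltf, Cdh6, Mmp7) were named after their values were seen. Positions are from GENCODE vM21 and promoters from RefSeq, both GRCm38 (mm10). Alternatives were a pseudocount of 0.1, no filter, median-ratio or equal-total scaling, the replicate block, the compared groups alone, no variance trend, genes listed at 0 kept, and leaving out each library.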

Additional observations from a re-analysis of the deposited data

How the results depend on the processing

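The count of markers called between genotypes was 0 in UUO kidneys and 0 for the interaction under all alternatives run. In CL kidneys it was 0 to 1 when single libraries were left out, with the 1 being Vcam1 without Acot12-/- CL replicate 2, and 0 under the other alternatives. Under both scalings, 10 of 10 markers were without overlap between UUO and CL, on which they had been selected. With the replicate block, 34 of the other injured epithelium genes were called higher with UUO in Acot12+/+ and 34 in Acot12-/- kidneys, against 32 and 33 without it, and 0 markers were called between genotypes. Over all alternatives these counts ran from 29 to 38 and from 30 to 36. The members were followed gene by gene between genotypes. For UUO against CL, C3, Cxcl1, Krt19 and the most changed called genes of the Sprr, receptor, polyamine and Sox lists were followed. Of all these, Sox12, Hdc, Vldlr, Sms, Sox6 and Vcam1 crossed the threshold under an alternative. Other genes of the injured epithelium list crossed as well, as its counts show. For UUO against CL in Acot12+/+, the adjusted p from limma ran over the alternatives from 0.000391 to 0.0576 for Hdc, from 7.36e-05 to 0.0583 for Sms, from 8.43e-05 to 0.0960 for Vldlr, from 0.000568 to 0.114 for Sox12 and from 0.00104 to 0.800 for Sox6. Scaling to equal total FPKM moved the median of all genes from 0.01 to 0.62 for UUO against CL in Acot12+/+ and from -0.01 to 0.45 in Acot12-/-, and median-ratio scaling moved it to 0.09 and 0.13, so small falls from CL to UUO depend on the scaling. With 3 libraries a group, the 95% intervals of Lcn2 span more than 3 log2 units in each genotype comparison, and depth limits Krt20 and Sprr2f in CL kidneys, where they rest on at most 9.9 fragments.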
